A study of Mus musculus with 42 samples.

Results

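The comparison described here is between Purkinje cells of 56-day-old mice (P56) and Purkinje cells of 35-day-old mice (P35), across all genes measured. Its members are the 8 arrays that the sample labels assign to these groups, 4 at P56 and 4 at P35, out of 42 deposited columns (40 used), and the comparison covers 17478 genes. Purkinje cells are the large inhibitory neurons that carry the whole output of the cerebellar cortex. They receive parallel fibre and climbing fibre input, signal through metabotropic glutamate receptors and large calcium stores, and fire spontaneously with the help of specialised sodium and potassium channels. Dendrite growth and climbing fibre pruning are largely over by the fourth postnatal week in mice, so both ages fall in the phase in which a juvenile cell becomes an adult one.

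The study measured gene expression on whole-genome Affymetrix arrays in Purkinje cells at 7 ages and in Stellate/Basket cells, the inhibitory interneurons of the molecular layer, at 5 ages. All groups are of 1 strain, G42, formally CB6-Tg(Gad1-EGFP)G42Zjh/J, with a Gad67-GFP bac transgene, in which regulatory DNA of Gad67 (Gad1), the main enzyme of GABA synthesis, drives green fluorescent protein. All mice are labelled male, and no group received a treatment of its own. Cerebellar slices were bathed in AP5, CNQX and TTX, which block glutamate receptors and sodium channels, then loosened with a bacterial protease, and single cells were picked by hand for their fluorescence and the size of their soma. Polyadenylated RNA was amplified in 2 rounds before labelling. Besides Purkinje P56 and P35, the groups used below are Purkinje P28 (4 arrays) and Stellate/Basket P56 and P35 (2 arrays each, since 1 further column in each is the average of those 2). The labels call the replicates biological and do not say how many mice or cells stand behind an array.

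All 8 arrays had high levels of Purkinje markers and low levels of an interneuron marker. Levels here are log2 values as deposited, for the probe set (the group of oligonucleotides that reads 1 transcript) with the highest mean of each gene. Pcp2, a G protein regulator found almost only in Purkinje cells in the cerebellum, read 13.39, 13.21, 13.48 and 13.48 in the P56 arrays, against 13.43, 13.37, 12.89 and 13.18 in the P35 arrays. Calb1, the calcium buffer calbindin, read 13.56, 13.48, 13.53 and 13.54 in the P56 arrays, against 13.67, 13.72, 13.58 and 13.60 in the P35 arrays. Both stood near the top of the scale, which ends at 14.57. Gad1 read 12.64, 12.61, 12.39 and 12.76 in the P56 arrays, against 12.39, 12.47, 12.56 and 12.50 in the P35 arrays. Kit, a receptor of molecular layer interneurons, read 5.26, 5.44, 5.48 and 5.49 in the P56 arrays, against 5.39, 5.17, 5.59 and 5.55 in the P35 arrays, near the low end of the scale. The ages overlapped in all of these except Calb1, whose 4 P56 values were below the 4 P35 values by a small margin, and none of the 4 genes was called.

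The 8 arrays were not uniform, and 2 features touch every result below. The first is the upper range. The 90th percentile of all probe sets was 9.42, 9.13, 9.27 and 9.49 in P56 replicates 1 to 4, against 8.82, 8.79, 9.19 and 9.14 in P35 replicates 1 to 4, so P35 replicates 1 and 2 had the lowest upper range of the 8. Over all genes, the P56 arrays correlated with P35 replicates 1 and 2 at r = 0.912 to 0.947 and with P35 replicates 3 and 4 at r = 0.962 to 0.980, as a description across genes. The second is the level of X- and Y-linked genes. Xist, the RNA of the inactive X chromosome, read 10.71, 7.68, 7.59 and 10.72 in the P56 arrays, against 11.12, 10.68, 7.03 and 6.83 in the P35 arrays. Eif2s3y, a gene of the Y chromosome, was at 4.29, 7.91, 8.78 and 4.28 in the P56 arrays, against 4.40, 4.41, 7.37 and 7.25 in the P35 arrays. P56 replicates 1 and 4 and P35 replicates 1 and 2, all labelled male, thus had high Xist with Eif2s3y at the low end of the scale. At P35 the high-Xist pair is also the pair with the low upper range, so the influence of the one cannot be told apart from that of the other there. P28 replicates 1 to 4 split alike, with Xist at 7.075, 7.22, 10.83 and 11.07 and 90th percentiles of 9.26, 9.26, 8.92 and 8.97. P35 replicates 1 and 2 correlated with P28 replicates 3 and 4 at r = 0.978 to 0.986, and with P35 replicates 3 and 4 at r = 0.946 to 0.953. Comparisons with P28 below thus carry the same limit. For the called genes below, the difference is therefore given also against P35 replicates 3 and 4 and between the low-Xist arrays of the ages.

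**Figure D1:**
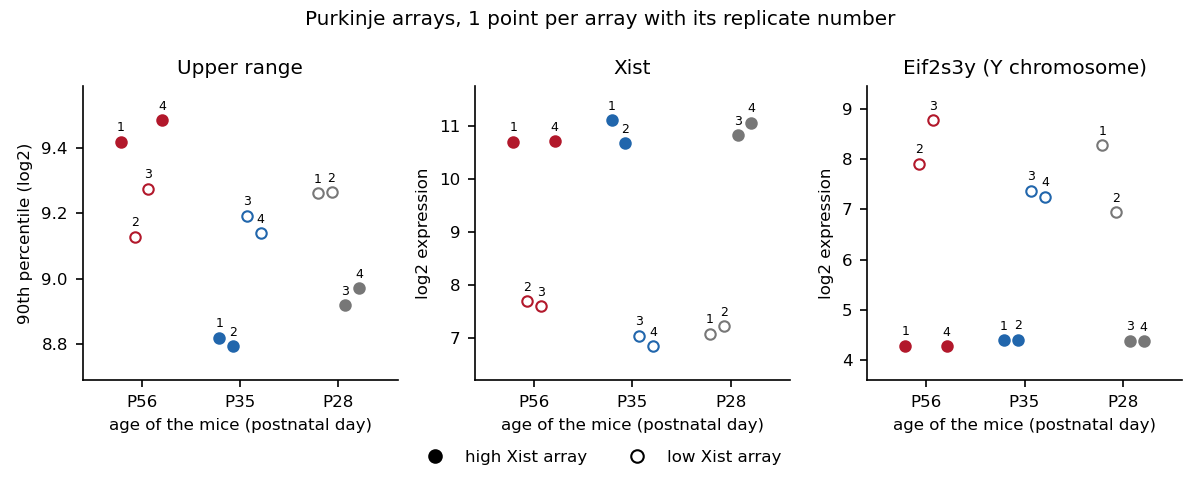
Upper range (90th percentile of log2 values), Xist and Eif2s3y in the Purkinje arrays of P56, P35 and P28, 1 point per array with its replicate number. P35 replicates 1 and 2 have the lowest 90th percentiles (8.82 and 8.79) together with high Xist, while at P56 the 2 high-Xist arrays have the highest 90th percentiles (9.42 and 9.49).

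In total, 498 genes (2.85%) differed, of which 448 (2.56% of those tested) were higher at P56 and 50 (0.286%) were lower at P56 than at P35. A gene was called when the limma adjusted p was under 0.05 and the log2 difference was at least 1 in size, which is a doubling or a halving. The median of all genes was -0.06, and the called differences ran from -2.39 to 3.34. In 291 of the 448 and 35 of the 50, the 4 arrays of one age did not overlap the 4 of the other, which over all genes was so for 1229 with P56 above (7.03%) and 2460 with P56 below (14.1%). Without the minimum difference the balance was the other way, with 1340 genes higher (7.67%) and 2918 lower (16.7%) at P56. The direction of a difference varied with the level of the gene: with the genes ordered by level into 4 bins of equal size, the median difference from the lowest to the highest bin was -0.15, -0.20, 0.0097 and 0.25. Against P35 replicates 3 and 4 alone the same 4 medians were -0.07, -0.13, -0.10 and 0.07. As these are pools of picked cells, a change in RNA per cell and a change in the share of a cell type cannot be told apart.

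The increases were larger against P35 replicates 1 and 2 than against replicates 3 and 4. The median difference over the 448 genes was 1.66 against that pair and 0.77 against replicates 3 and 4, and 386 of the 448 were further from replicates 1 and 2. A difference of at least 1 was met against both pairs by 87 of the 448 and by 12 of the 50. Between the high-Xist arrays of the 2 ages, 434 of the 448 and 45 of the 50 differed by at least 1 in the called direction, whereas between the low-Xist arrays 71 and 13 did. With P35 replicates 3 and 4 alone at P35, 152 genes were called higher and 29 lower, and of the 448 and 50 genes above, 81 and 13 were still called. When the high-Xist arrays of both ages were left out, 38 were higher and 31 lower. Quantile normalization, which gives all arrays 1 distribution, left 196 higher and 85 lower, a share of 69.8% higher in place of 90%, and a fit with each array's 90th percentile as covariate left 32 in each direction.

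**Figure D2:**
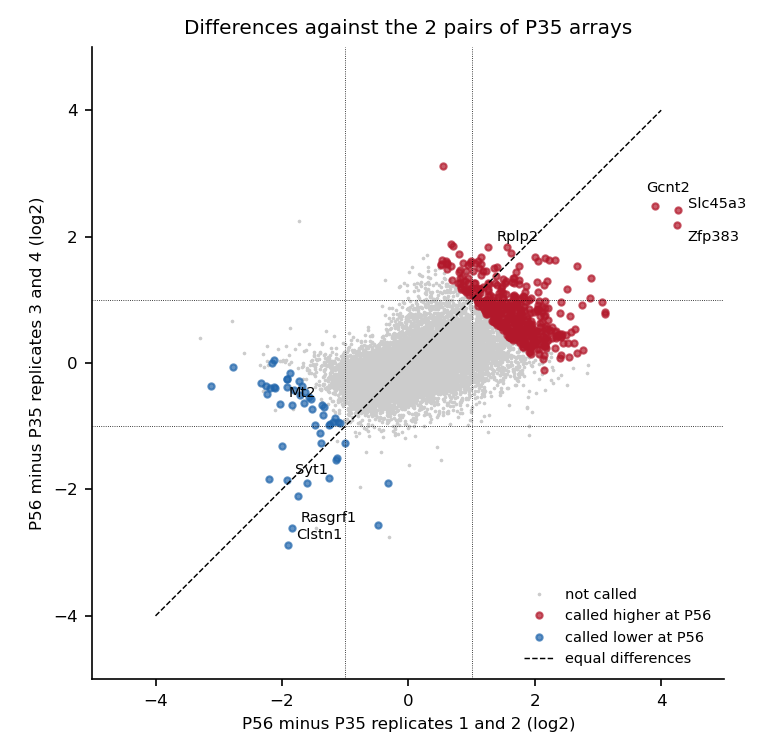
Log2 difference of each gene between the mean of the 4 P56 arrays and P35 replicates 1 and 2 (horizontal axis) or P35 replicates 3 and 4 (vertical axis), with called genes coloured, the dashed line at equality and dotted lines at a difference of 1. Most red points lie right of the vertical line but below the horizontal one: 87 of the 448 genes called higher reach 1 on both axes.

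A small set of genes was called in 13 alternatives that changed the arrays or their scaling. In the same direction, 8 higher and 7 lower genes were called in each of these 13, namely leaving out each of the 8 arrays in turn, P35 replicates 3 and 4 alone, the high-Xist and the low-Xist arrays on their own, quantile normalization and the 90th percentile as a covariate. The higher ones were Slc45a3, Zfp383, Gcnt2, Tpx2, Arid3b, Rplp2, Ehf and Cyp2c29, and the lower ones Clstn1, Rasgrf1, Bscl2, Pdxdc1, Syt1, Nell2 and Rtn3. These 15 were picked by how their calls behaved, and the list is a description with no test of its own. The 13 keep the choice of probe set: with the mean of all probe sets of a gene, Gcnt2 (0.26), Syt1 (-0.54), Nell2 (-0.16), Pdxdc1 (0.071) and Rtn3 (-0.58) were not called, and Arid3b, Ehf and Cyp2c29 were not examined there. Arid3b, Ehf and Cyp2c29 are named only for this reason, after their values were seen.

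Slc45a3, which encodes a membrane transporter of the sugar carrier family, had the largest increase. It read 9.22, 10.30, 10.28 and 10.11 in the P56 arrays, against 5.59, 5.84, 7.27 and 7.85 in the P35 arrays. The difference was 3.34 ± 0.38 (SE; adjusted p = 2.31e-06), or 10.1-fold, and every P56 array exceeded every P35 array, with P35 replicates 3 and 4 between the other arrays. This came from 1 probe set, while the other probe set of Slc45a3 was at -0.0076 (log2) and was not called. Zfp383, a zinc finger protein gene, read 9.61, 11.03, 10.75 and 9.79 in the P56 arrays, against 5.96, 6.15, 7.76 and 8.46 in the P35 arrays. Its difference was 3.22 ± 0.46 (SE; adjusted p = 4.04e-05), and its other probe set was at 0.86 (log2) and was not called. Gcnt2, the enzyme that adds branches to poly-N-acetyllactosamine sugar chains, read 9.996, 11.18, 10.99 and 10.74 in the P56 arrays, against 6.64, 7.02, 7.94 and 8.55 in the P35 arrays. Its difference of 3.19 ± 0.48 (SE; adjusted p = 5.81e-05) came from 1 of 8 probe sets, while the other 7 lay between -0.43 and 0.0044 (log2). Tpx2, a spindle protein that activates the kinase Aurora A in dividing cells, read 9.10, 10.06, 9.45 and 9.28 in the P56 arrays, against 6.57, 6.60, 7.997 and 8.27 in the P35 arrays, a difference of 2.12 ± 0.31 (SE; adjusted p = 4.96e-05). A further Tpx2 probe set was called higher by 1.91 (log2). Those at -0.14 and 0.20 were not called, and their means at both ages, 4.83 to 5.03, were near the low end of the scale. These 4 genes shared one order of arrays: all P56 arrays were highest, P35 replicates 3 and 4 came next, and P35 replicates 1 and 2 were lowest. At P28 their means were 5.69 for Slc45a3, 6.47 for Zfp383, 7.61 for Gcnt2 and 6.49 for Tpx2, and each was called higher at P56 than at P28 as well, by 4.29, 3.83, 3.12 and 2.98 (log2). P56 was the highest of the 7 Purkinje ages for all 4. Against P35 replicates 3 and 4 and between the low-Xist arrays the P56 minus P35 differences were 2.42 and 2.73 for Slc45a3, 2.19 and 2.78 for Zfp383, 2.48 and 2.84 for Gcnt2 and 1.34 and 1.62 for Tpx2.

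The other increases called in all 13 alternatives were smaller. Arid3b, an AT-rich DNA-binding factor, read 8.17, 9.13, 9.27 and 8.20 in the P56 arrays, against 6.55, 6.72, 7.01 and 7.15 in the P35 arrays (difference 1.84 ± 0.20 SE, adjusted p = 2.31e-06). Ehf, an ETS-family factor of epithelial cells, read 8.97, 9.84, 10.07 and 10.05 in the P56 arrays, against 7.95, 8.20, 8.21 and 8.57 in the P35 arrays (difference 1.503 ± 0.25 SE, adjusted p = 0.000203). Cyp2c29, a cytochrome P450 best known in mouse liver, read 7.32, 7.79, 7.92 and 7.85 in the P56 arrays, against 6.71, 6.46, 6.66 and 6.55 in the P35 arrays (difference 1.12 ± 0.13 SE, adjusted p = 4.54e-06). In all 3 the ages did not overlap. Rplp2, an acidic protein of the large ribosomal subunit's stalk, read 10.76, 10.24, 10.56 and 10.93 in the P56 arrays, against 9.91, 8.81, 8.67 and 8.92 in the P35 arrays, with a difference of 1.55 ± 0.29 (SE; adjusted p = 0.000478). For Rplp2 it was P35 replicate 1 that lay nearest to P56, not replicates 3 and 4. The differences against P35 replicates 3 and 4 and between the low-Xist arrays were 1.62 and 2.12 for Arid3b, 1.35 and 1.57 for Ehf, 1.11 and 1.25 for Cyp2c29 and 1.83 and 1.61 for Rplp2.

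Of the 12 leading increases, the 8 not yet described were called in fewer than these 13 alternatives. Nrn1, the GPI-anchored neurite growth factor neuritin, read 10.23, 9.68, 9.81 and 9.11 in the P56 arrays, against 6.93, 8.15, 7.81 and 8.28 in the P35 arrays. The difference was 1.91 ± 0.37 (SE; adjusted p = 0.000769), with 2.17 against P35 replicates 1 and 2 and 1.66 against replicates 3 and 4, and the 4 P35 arrays lay below the 4 P56 arrays. Scg5, the chaperone 7B2 of a prohormone convertase, read 10.94, 10.66, 9.77 and 11.71 in the P56 arrays, against 8.78, 8.29, 9.11 and 9.15 in the P35 arrays, a difference of 1.93 ± 0.30 (SE; adjusted p = 9.8e-05). Tm2d1, a membrane protein that binds amyloid beta, differed by 2.10 ± 0.35 (SE; adjusted p = 0.000179), and Hikeshi, the nuclear import carrier of Hsp70 under heat stress, by 1.98 ± 0.34 (SE; adjusted p = 0.000255). In Scg5, Tm2d1 and Hikeshi the 4 arrays of P56 also exceeded the 4 of P35, and of 24 alternatives only leaving out the high-Xist arrays removed the call. There the differences were 1.08 for Scg5, 1.05 for Tm2d1 and 1.19 for Hikeshi, and against P35 replicates 3 and 4 they were 1.64, 1.53 and 1.64. Nrn1 missed the threshold in the same setting and with the 90th percentile as a covariate, with differences of 1.70 and 1.41 beside its 1.91.

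The noncoding RNA Tug1 read 9.56, 9.03, 9.48 and 9.69 in the P56 arrays, against 6.48, 6.63, 8.39 and 8.43 in the P35 arrays. Its difference of 1.95 ± 0.47 (SE; adjusted p = 0.00415) split into 2.88 against P35 replicates 1 and 2 and 1.03 against replicates 3 and 4. Zc3h14, a zinc finger protein that binds poly(A) tails, differed by 1.95 ± 0.47 (SE; adjusted p = 0.00442), with 3.12 against P35 replicates 1 and 2 and 0.78 against replicates 3 and 4. Caap1, an inhibitor of caspase activity, differed by 1.84 ± 0.46 (SE; adjusted p = 0.00507), with 2.51 against P35 replicates 1 and 2 and 1.18 against replicates 3 and 4. In these 3 genes the mean of P35 replicates 3 and 4 lay between that of P56 and that of replicates 1 and 2, and no call was made with replicates 3 and 4 alone. Between the low-Xist arrays they were 0.84 for Tug1, 0.56 for Zc3h14 and 0.70 for Caap1. Ccdc85a differed by 1.84 ± 0.61 (SE; adjusted p = 0.0272), and its call was lost in 8 of 24 alternatives, among them leaving out P56 replicate 1 (1.78), P56 replicate 4 (1.65), P35 replicate 1 (1.76) or P35 replicate 2 (1.82). Its difference was 1.68 against P35 replicates 3 and 4 and 1.29 between the low-Xist arrays.

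**Figure D3:**
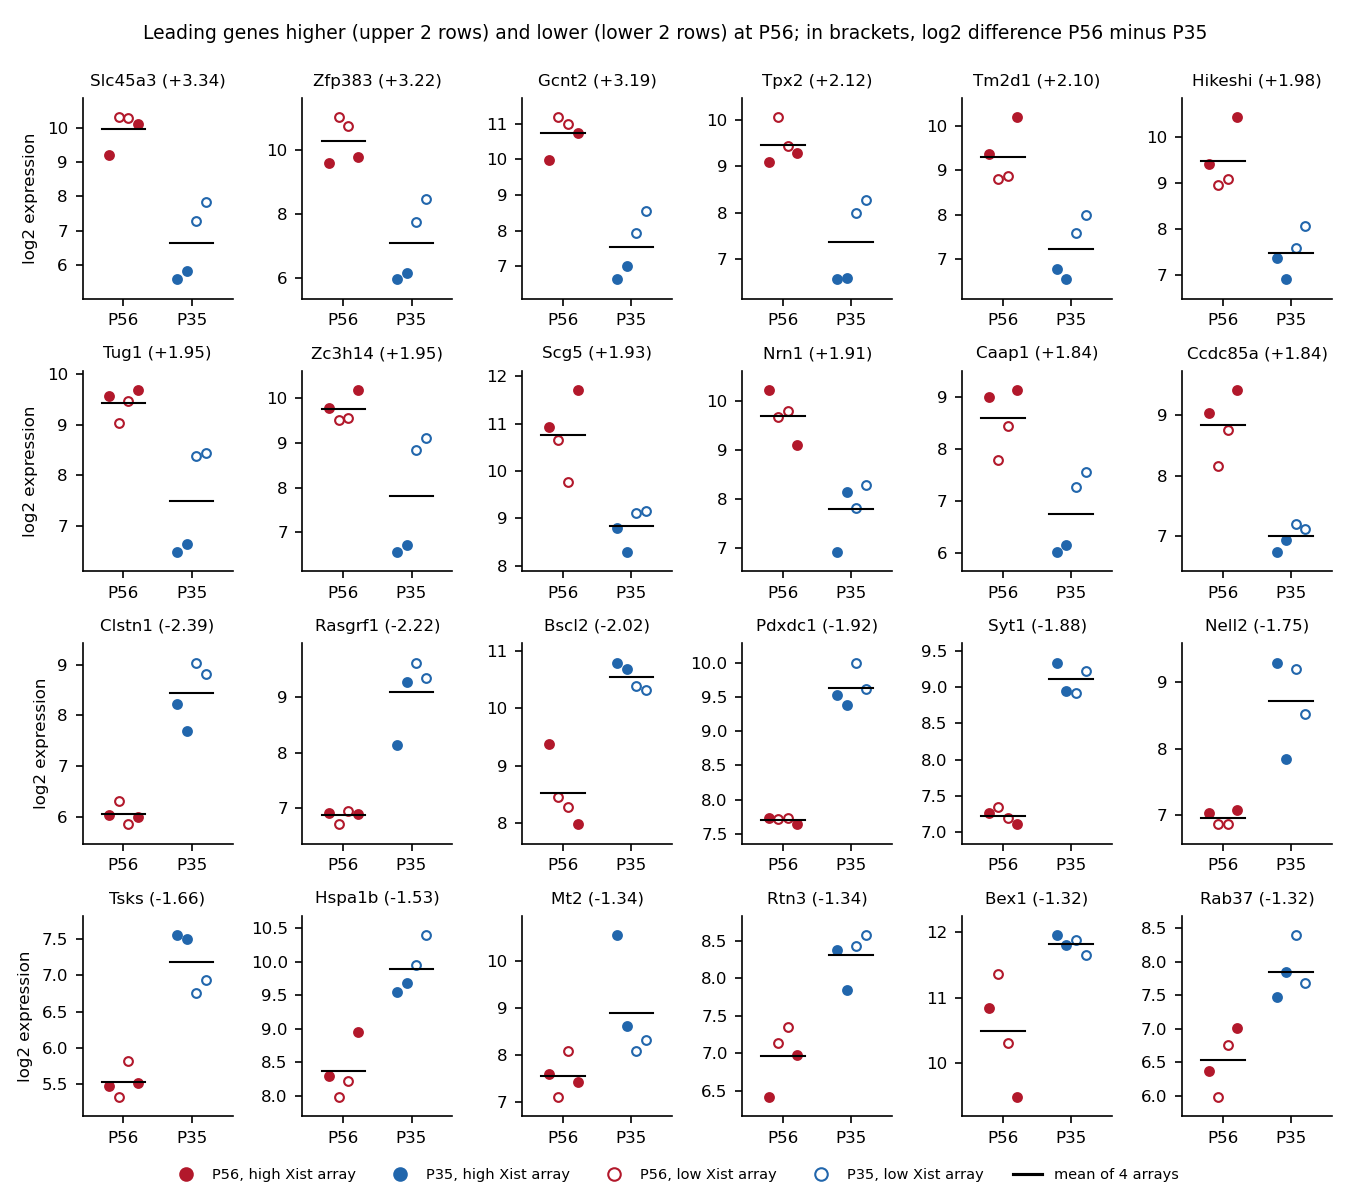
Log2 expression of the 12 leading genes higher and the 12 leading genes lower at P56 in each array, P56 left of P35, with filled points for high-Xist arrays and lines at the mean of 4 arrays. The P35 points of Slc45a3, Zfp383, Gcnt2, Tpx2, Tug1 and Zc3h14 fall into 2 pairs, whereas those of Syt1, Pdxdc1 and Bscl2 lie close together and apart from P56.

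The decreases were fewer, and their median was -1.69 against P35 replicates 1 and 2 and -0.68 against replicates 3 and 4. Clstn1, calsyntenin-1, which links synaptic and axonal cargo to kinesin motors, read 6.04, 6.32, 5.85 and 6.01 in the P56 arrays, against 8.22, 7.70, 9.04 and 8.82 in the P35 arrays. The difference was -2.39 ± 0.32 (SE; adjusted p = 2.35e-05), or 5.24-fold lower at P56, with -1.90 against P35 replicates 1 and 2 and -2.88 against replicates 3 and 4. The other Clstn1 probe set was at -0.42 (log2) and was not called. Rasgrf1, a calcium-activated exchange factor for Ras, read 6.92, 6.71, 6.96 and 6.90 in the P56 arrays, against 8.14, 9.27, 9.62 and 9.34 in the P35 arrays, a difference of -2.22 ± 0.37 (SE; adjusted p = 0.000192). In both genes all P56 values were below all P35 values. Bscl2, the endoplasmic reticulum protein seipin that shapes lipid droplets, read 9.38, 8.46, 8.28 and 7.98 in the P56 arrays, against 10.79, 10.68, 10.39 and 10.32 in the P35 arrays, a difference of -2.02 ± 0.37 (SE; adjusted p = 0.000473), and its second probe set was also called lower, by 1.05 (log2). Syt1, the calcium sensor of fast vesicle release, read 7.26, 7.34, 7.20 and 7.10 in the P56 arrays, against 9.34, 8.95, 8.92 and 9.23 in the P35 arrays. Its difference of -1.88 ± 0.29 (SE; adjusted p = 8.24e-05) was made up of -1.92 against P35 replicates 1 and 2 and -1.85 against replicates 3 and 4, and the ages did not overlap. The other 3 Syt1 probe sets lay between -0.21 and -0.01, so 1 probe set of 4 was called. Rtn3, a reticulon that curves endoplasmic reticulum membrane, read 6.42, 7.14, 7.35 and 6.97 in the P56 arrays, against 8.37, 7.85, 8.43 and 8.57 in the P35 arrays, a difference of -1.34 ± 0.21 (SE; adjusted p = 0.000106), with its second probe set at 0.18. Between the low-Xist arrays the differences of these genes were -2.84 for Clstn1, -2.65 for Rasgrf1, -1.98 for Bscl2, -1.81 for Syt1 and -1.26 for Rtn3, and against P35 replicates 3 and 4 those of Rasgrf1, Bscl2 and Rtn3 were -2.61, -1.83 and -1.53.

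Pdxdc1 and Nell2 gave opposite answers from different probe sets. For Pdxdc1, which encodes a protein with a pyridoxal-dependent decarboxylase domain, the probe set with the highest mean over all arrays read 7.74, 7.72, 7.73 and 7.64 in the P56 arrays, against 9.53, 9.38, 9.998 and 9.61 in the P35 arrays (difference -1.92 ± 0.30 SE, adjusted p = 8.59e-05), whereas another was called higher at P56 by 1.80 (log2). For Nell2, a secreted neuronal glycoprotein with EGF-like repeats, the probe set with the highest mean over all arrays read 7.03, 6.87, 6.86 and 7.08 in the P56 arrays, against 9.29, 7.84, 9.19 and 8.52 in the P35 arrays (difference -1.75 ± 0.36 SE, adjusted p = 0.00115), and the other was called higher by 1.43 (log2). A direction for the whole gene cannot be given for either. The probe sets with the highest mean differed by -2.10 against P35 replicates 3 and 4 and -2.08 between the low-Xist arrays for Pdxdc1 and by -1.90 against P35 replicates 3 and 4 and -1.99 between the low-Xist arrays for Nell2. Of the 448 increases, 290 had further probe sets, of which at least 1 was called the same way in 54 and the opposite way in 3. Of the 50 decreases, 38 had further probe sets, called the same way in 2 and the opposite way in 2.

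The remaining leading decreases include stress genes. Hspa1b, an inducible Hsp70 chaperone, read 8.29, 7.98, 8.22 and 8.95 in the P56 arrays, against 9.55, 9.68, 9.95 and 10.39 in the P35 arrays. The difference was -1.53 ± 0.33 (SE; adjusted p = 0.0019), with -2.07 between the low-Xist arrays and -0.996 between the high-Xist arrays, and the ages did not overlap. Further Hspa1b probe sets at -0.40 and -0.66 (log2) were not called, nor was Hspa1b with the mean of all probe sets (-0.87). Its near-identical neighbour Hspa1a, with which probe sets may share transcripts, was at -0.63 (log2) and was not called. Mt2, a metallothionein that binds zinc and copper and is made in quantity by astrocytes, read 7.60, 7.10, 8.08 and 7.43 in the P56 arrays, against 10.55, 8.62, 8.08 and 8.31 in the P35 arrays, a difference of -1.34 ± 0.43 (SE; adjusted p = 0.0234). P35 replicate 1 was the highest array, and the call was lost without it (-0.78), without P56 replicate 2 (-1.19) or without P56 replicate 4 (-1.29). Bex1, a small signalling adaptor of neurons, read 10.84, 11.36, 10.30 and 9.49 in the P56 arrays, against 11.95, 11.80, 11.88 and 11.65 in the P35 arrays (difference -1.32 ± 0.33 SE, adjusted p = 0.00558). All P56 values of Bex1 were below all P35 values, and the call was lost without P56 replicate 4 (-0.98). Tsks, known as a kinase substrate in testis, differed by -1.66 ± 0.35 (SE; adjusted p = 0.00139) and Rab37, a small GTPase of secretory vesicles, by -1.32 ± 0.30 (SE; adjusted p = 0.00272), in both cases without overlap of the ages. Against P35 replicates 3 and 4 and between the low-Xist arrays the differences were -0.64 and -0.60 for Mt2, -1.27 and -0.93 for Bex1, -1.32 and -1.28 for Tsks and -1.51 and -1.67 for Rab37, and the first of these was -1.81 for Hspa1b. Mt2, Bex1 and Tsks were called with neither choice of arrays.

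Promoter sequences are shown for Hspa1b and Mt2, whose regulators bind known elements, and for Clstn1, the largest decrease. Each is the 250 bases before the transcription start in the RefSeq promoter table (GRCm38.p6), 5′ to 3′ on the gene's strand, at chr17:34959239-34959488, minus strand for Hspa1b, chr8:94172368-94172617, plus strand for Mt2 and chr4:149586218-149586467, plus strand for Clstn1. Capitals mark matches to a heat shock element core, GAANNTTC, in Hspa1b, and to a metal response element core, TGCGCNC, in Mt2 and Clstn1, on either strand.
Hspa1b: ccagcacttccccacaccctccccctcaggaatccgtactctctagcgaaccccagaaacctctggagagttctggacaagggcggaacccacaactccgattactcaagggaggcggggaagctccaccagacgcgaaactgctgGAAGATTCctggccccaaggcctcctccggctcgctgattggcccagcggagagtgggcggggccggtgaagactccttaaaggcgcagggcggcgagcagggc
Mt2: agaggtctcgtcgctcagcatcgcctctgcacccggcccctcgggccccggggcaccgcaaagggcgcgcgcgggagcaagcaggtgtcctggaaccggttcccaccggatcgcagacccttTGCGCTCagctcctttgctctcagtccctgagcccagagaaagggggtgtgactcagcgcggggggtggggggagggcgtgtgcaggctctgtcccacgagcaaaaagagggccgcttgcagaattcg
Clstn1: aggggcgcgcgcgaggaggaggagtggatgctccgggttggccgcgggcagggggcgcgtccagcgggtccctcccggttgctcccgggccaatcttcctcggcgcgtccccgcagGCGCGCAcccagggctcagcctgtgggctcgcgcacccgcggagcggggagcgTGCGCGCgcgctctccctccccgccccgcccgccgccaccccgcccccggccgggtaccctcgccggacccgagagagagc
Of 32851 promoters in that table, 6.69% hold the heat shock core and 12.5% the metal response core in the same 250 bases. Among the 12 leading increases, 9 have a promoter there, 2 of them with the heat shock core (Ccdc85a and Zc3h14) and 0 with the metal response core. Among the 12 leading decreases, 10 have one, 1 with the heat shock core (Hspa1b) and 3 with the metal response core (Clstn1, Mt2 and Rtn3). A match says only that these letters occur in the window.

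Several of the genes that fell had a lower mean at P28 than at P35. The mean levels of Rasgrf1 over age were P3 9.36, P7 9.78, P14 7.12, P21 7.45, P28 7.11, P35 9.09 and P56 6.87. Those of Syt1 were P3 11.13, P7 10.99, P14 7.54, P21 8.09, P28 7.74, P35 9.11 and P56 7.22. Those of Hspa1b were P3 10.72, P7 10.34, P14 7.20, P21 8.27, P28 7.33, P35 9.90 and P56 8.36. In each, the means at P3 and P7 were the highest, and the mean at P35 was above those at P14, P21, P28 and P56. For Hspa1b the P56 mean was still above those at P14, P21 and P28. Compared with P28, P35 was called higher for Clstn1 by 1.43, for Rasgrf1 by 1.98, for Bscl2 by 2.01, for Syt1 by 1.37, for Hspa1b by 2.57, for Bex1 by 1.83 and for Rab37 by 1.14 (log2). In that comparison, which shares the P35 arrays with the one above, 20 genes (0.114%) were called higher and 47 (0.269%) lower over all. The corresponding P56 minus P28 values were -0.96, -0.24, -0.01, -0.52, 1.03, 0.51 and -0.18, of which that of Hspa1b was called. One P28 array, replicate 2, read above the other 3 in Clstn1 (8.35, against 6.58, 6.08 and 7.06), Rasgrf1 (7.74, against 6.86, 6.96 and 6.90), Bscl2 (10.60, against 8.42, 8.02 and 7.10), Syt1 (8.80, against 7.22, 7.53 and 7.43), Bex1 (11.68, against 9.58, 9.13 and 9.55) and Rab37 (7.76, against 6.28, 6.43 and 6.34).

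**Figure D4:**
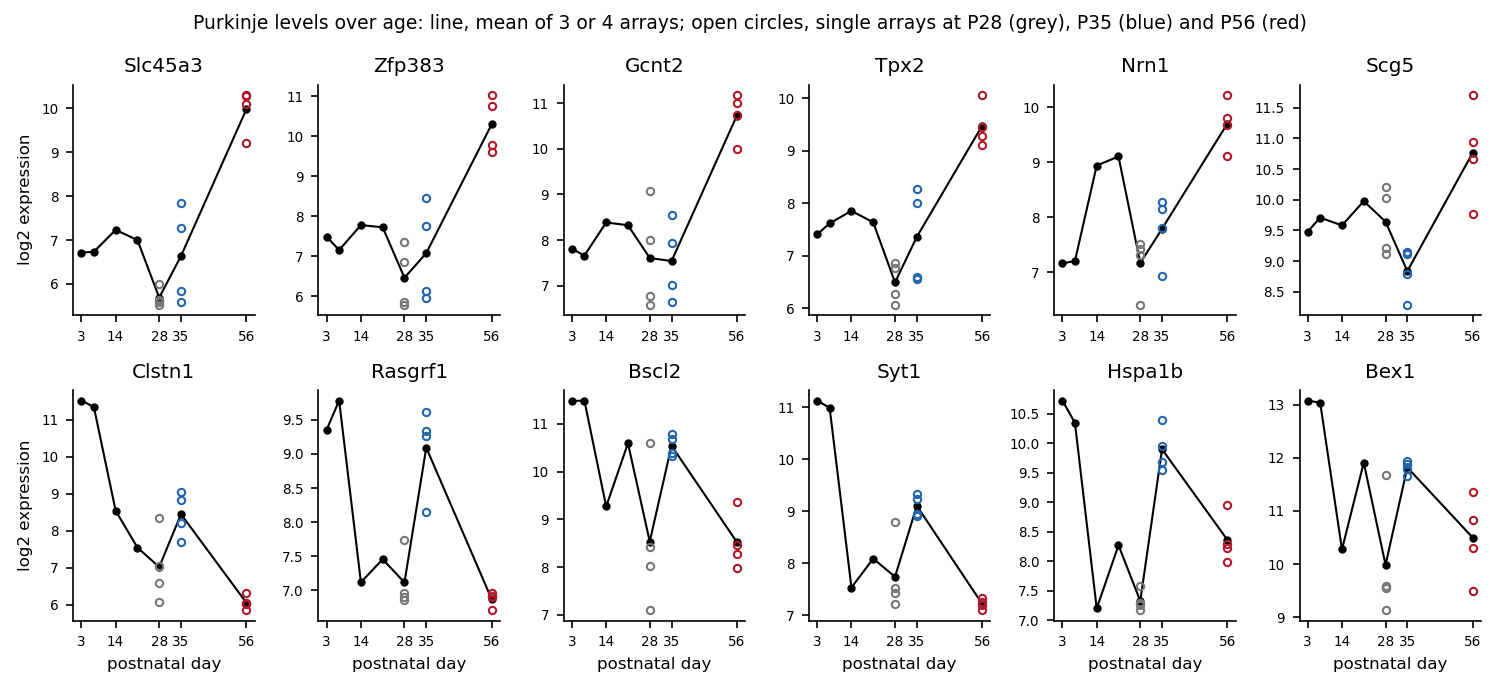
Mean log2 expression over the 7 Purkinje ages for 6 leading increases (upper row) and 6 leading decreases (lower row), with single arrays at P28, P35 and P56 as open circles. Slc45a3, Zfp383, Gcnt2, Tpx2 and Scg5 have their highest mean at P56, and Rasgrf1, Syt1 and Hspa1b have a higher mean at P35 than at P28 and at P56.

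Among the 448 increases, P56 had the highest mean of the 7 ages in 319 (71.2%, against 17.6% of all genes tested) and P35 the lowest in 209 (46.7%, against 10.4%). Of the 50 decreases, P56 had the lowest mean in 42, as it had in 5254 of all genes (30.1%). These shares are partly set by how the genes were chosen and carry no test. P56 against P28 gave 618 called genes (3.54%), 449 higher (2.57%) and 169 lower (0.967%), from the same P56 arrays.

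Over all genes 2.85% were called, and a count of 0 in lists of this size is near that share. Of 18 Purkinje markers measured, 0 were called, and their median difference was 0.13, against -0.06 for all genes. Their mean level ran from 12.25 to 12.39 in the P56 arrays and 12.16 to 12.26 in the P35 arrays. The 2 largest differences were in Gng13, a G protein gamma subunit, at 0.42 ± 0.36 (SE; adjusted p = 0.395), and Foxp2, a forkhead factor of Purkinje cells, at 0.42 ± 0.39 (SE; adjusted p = 0.439). Among 18 genes of the mGluR1 cascade (calcium stores and protein kinase C), 0 were called (median 0.01), with Homer1, a scaffold of mGluR1, at 0.86 ± 0.37 (SE; adjusted p = 0.0879) and Stim1, the sensor of store calcium, at -0.71 ± 0.15 (SE; adjusted p = 0.0014). The 22 calcium buffers, pumps and exchangers also gave 0 calls, with the sodium-calcium exchanger Slc8a1 at 0.94 ± 0.34 (SE; adjusted p = 0.0396) and hippocalcin, Hpca, at 0.53 ± 0.30 (SE; adjusted p = 0.198). Of 19 transcription factors of the Purkinje lineage 0 were called, with Ebf2 at 0.84 ± 0.31 (SE; adjusted p = 0.0462) and Foxp1 at 0.77 ± 0.47 (SE; adjusted p = 0.233). Of 22 spinocerebellar ataxia genes 0 were called, with Fgf14, a partner of sodium channels, at 0.92 ± 0.60 (SE; adjusted p = 0.261) and the phosphatase subunit Ppp2r2b at 0.76 ± 0.22 (SE; adjusted p = 0.0135). A gene that misses the test is not shown to be equal at both ages.

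Of 39 potassium and HCN channel genes, Kcnip1 rose and Kcnj10 fell, where all genes gave 2.56% higher and 0.286% lower. Kcnip1, an auxiliary subunit of Kv4 channels, read 11.27, 10.83, 11.18 and 11.70 in the P56 arrays, against 8.99, 9.10, 10.05 and 9.83 in the P35 arrays, and the difference was 1.75 ± 0.31 (SE; adjusted p = 0.000311) with no overlap of the ages. It was made up of 2.20 against P35 replicates 1 and 2 and 1.30 against replicates 3 and 4. Kcnj10, the inward rectifier Kir4.1 of glia, read 5.38, 4.99, 5.73 and 5.58 in the P56 arrays, against 7.78, 6.47, 5.98 and 5.86 in the P35 arrays, a difference of -1.10 ± 0.39 (SE; adjusted p = 0.0364) in which P35 replicates 1 and 2 were the highest arrays. Its call was lost without P56 replicate 1, 2 or 4 or without P35 replicate 1 or 2 (-0.69 to -1.16), and its difference was -0.50 against P35 replicates 3 and 4 and -0.56 between the low-Xist arrays. Between the low-Xist arrays Kcnip1 differed by 1.06, without a call. It was also not called with the 90th percentile as a covariate (0.94) or with the mean of all probe sets (0.61). Of 11 sodium channel genes and partners, 0 were called and 9 were positive, against 43.8% of all genes, and the median was 0.37. This median was 0.17 with P35 replicates 3 and 4 alone, 0.20 after quantile normalization and -0.27, the other direction, with the 90th percentile as a covariate. Scn1a, the Nav1.1 subunit, read 10.75, 10.68, 10.91 and 11.02 in the P56 arrays, against 9.45, 9.57, 10.09 and 10.25 in the P35 arrays, with a difference of 1.002 ± 0.47 (SE; adjusted p = 0.117). The ages did not overlap in Scn1a, and the standard error, pooled over the spread within all 12 groups, was 0.47. Further Scn1a probe sets were at 0.78 and -0.63 (log2), and neither was called. Of 16 calcium channel genes 0 were called, with Cacng5 at -0.64 ± 0.38 (SE; adjusted p = 0.217) and the beta subunit Cacnb4 at 0.59 ± 0.23 (SE; adjusted p = 0.0608).

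In the synaptic lists 2 genes rose and 1 fell, where all genes gave 2.56% higher and 0.286% lower. Gphn, gephyrin, the scaffold of inhibitory synapses, was the 1 called gene of 17 in its list and read 9.37, 8.81, 9.42 and 9.48 in the P56 arrays, against 7.18, 7.30, 8.88 and 8.90 in the P35 arrays. Its difference of 1.204 ± 0.36 (SE; adjusted p = 0.0159) split into 2.03 against P35 replicates 1 and 2 and 0.38 against replicates 3 and 4, and the call was lost without P56 replicate 4 (1.14), P35 replicate 1 (0.91) or P35 replicate 2 (0.95). Gabrb2, a GABA-A receptor subunit, was at 0.43 ± 0.47 (SE; adjusted p = 0.524). Of 30 genes of GABA synthesis and vesicle release, Syt1 fell (above), and the active zone protein Pclo was at 1.09 ± 0.44 (SE; adjusted p = 0.066). In the postsynaptic and adhesion list (30 genes), Dlgap1, a PSD-95 binding scaffold, rose, reading 11.34, 10.97, 10.77 and 11.39 in the P56 arrays, against 9.65, 9.77, 10.10 and 10.72 in the P35 arrays (difference 1.06 ± 0.26 SE, adjusted p = 0.00492), while the neurexin Nrxn3 was at 0.87 ± 0.22 (SE; adjusted p = 0.00644), under the minimum difference. Dlgap1 fell below that minimum without P56 replicate 1 or 4 or P35 replicate 1 or 2 (0.92 to 0.99). Further Nrxn3 probe sets ran from -0.71 to 0.56 (log2), and none was called. Between the low-Xist arrays Gphn differed by 0.23, and Dlgap1 differed by 0.71 against P35 replicates 3 and 4 and 0.46 between the low-Xist arrays. Among 19 ionotropic glutamate receptor genes 0 were called, with Neto2, an auxiliary subunit of kainate receptors, at 0.78 ± 0.30 (SE; adjusted p = 0.06) and Grin2d at -0.49 ± 0.13 (SE; adjusted p = 0.0066).

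Of 21 cadherins and protocadherins, 3 rose and 0 fell, against 2.56% and 0.286% of all genes, with a median of 0.03. Pcdh20 read 9.63, 8.87, 9.66 and 9.78 in the P56 arrays, against 8.25, 7.95, 8.07 and 8.15 in the P35 arrays, a difference of 1.38 ± 0.28 (SE; adjusted p = 0.00102) that was as large against P35 replicates 3 and 4 (1.37). Pcdh7 read 7.57, 6.82, 6.67 and 7.73 in the P56 arrays, against 5.38, 5.40, 6.38 and 5.90 in the P35 arrays, a difference of 1.44 ± 0.30 (SE; adjusted p = 0.00135). Cdh11 read 8.18, 6.81, 7.68 and 8.05 in the P56 arrays, against 5.24, 5.05, 7.31 and 7.41 in the P35 arrays. Its difference of 1.43 ± 0.46 (SE; adjusted p = 0.0255) split into 2.53 against P35 replicates 1 and 2 and 0.32 against replicates 3 and 4, it was -0.12 between the low-Xist arrays, and its call was lost without P56 replicate 1 or 4 or P35 replicate 1 or 2 (1.03 to 1.30). Pcdh7 differed by 1.06 against P35 replicates 3 and 4 and 0.61 between the low-Xist arrays and Pcdh20 by 1.15 between the low-Xist arrays. Pcdh7 was called with neither choice of arrays, and Pcdh20 was not called with the high-Xist arrays left out. Neither gene was called with the mean of all probe sets (0.44 and 0.92). Of 44 axon guidance genes 0 were called, with the receptor Epha5 at 1.05 ± 0.40 (SE; adjusted p = 0.0525) and the semaphorin Sema3f at -0.86 ± 0.16 (SE; adjusted p = 0.000401). Of 26 genes of neurite growth and immature neurons 0 were called, with the tubulin Tubb2b at -1.33 ± 0.54 (SE; adjusted p = 0.0679) and Dpysl2 at 0.68 ± 0.21 (SE; adjusted p = 0.021). The other Dpysl2 probe set was at -0.48 (log2) and was not called. Of 26 neurofilament, tubulin and motor genes 0 were called, with the kinesin Kif3a at 0.86 ± 0.30 (SE; adjusted p = 0.0349) and the neurofilament Nefm at 0.84 ± 0.40 (SE; adjusted p = 0.121). In the list of perineuronal net and matrix genes (15 measured) 0 were called, the proteases Adamts4 and Adamts5 being at 0.49 and -0.43.

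Fgf7 and Igfbp6 rose among 23 growth factor genes, where all genes gave 2.56% higher. Fgf7, a fibroblast growth factor that organizes synapses in hippocampus, read 11.46, 11.48, 10.10 and 12.13 in the P56 arrays, against 7.93, 8.42, 10.33 and 10.65 in the P35 arrays, a difference of 1.96 ± 0.48 (SE; adjusted p = 0.00456), and P56 replicate 3 lay below P35 replicates 3 and 4. Fgf7 differed by 0.80 against P35 replicates 3 and 4 and 0.30 between the low-Xist arrays, and it was not called with either choice of arrays or with the 90th percentile as a covariate (0.89). Igfbp6, a binding protein of insulin-like growth factor 2, read 8.56, 6.83, 8.89 and 9.45 in the P56 arrays, against 7.08, 6.53, 7.26 and 6.12 in the P35 arrays, a difference of 1.69 ± 0.37 (SE; adjusted p = 0.00201), with 1 low P56 array among the P35 values, and 1.75 against P35 replicates 3 and 4 and 1.17 between the low-Xist arrays. Igfbp6 was not called with the high-Xist arrays left out or with the 90th percentile as a covariate (1.335). Of 19 clock genes, Nr1d2, the repressor Rev-erb beta, rose, with 9.63, 9.15, 9.14 and 9.60 in the P56 arrays, against 7.74, 7.28, 8.81 and 8.87 in the P35 arrays (difference 1.204 ± 0.32 SE, adjusted p = 0.00851), a call that was lost without P35 replicate 2 (0.91), and Cry1 was at 0.57 ± 0.28 (SE; adjusted p = 0.126). Nr1d2 differed by 0.54 against P35 replicates 3 and 4 and 0.30 between the low-Xist arrays, and it was called in neither. The hour at which cells were taken is not given in the labels. Of 22 immediate early genes, the MAP kinase phosphatase Dusp6 rose, reading 7.23, 7.06, 7.50 and 8.02 in the P56 arrays, against 6.12, 5.95, 6.60 and 6.46 in the P35 arrays (difference 1.17 ± 0.40 SE, adjusted p = 0.0332), and Dusp1 was at 0.91 ± 0.39 (SE; adjusted p = 0.0823). The call of Dusp6 was lost without P56 replicate 1, 3 or 4 or P35 replicate 1 or 2 (0.98 to 1.24). Dusp6 differed by 0.92 against P35 replicates 3 and 4 and 0.75 between the low-Xist arrays, again with no call. Among 27 genes of G protein signalling 0 were called, with Gng4 at -1.18 ± 0.64 (SE; adjusted p = 0.176) and Rgs2 at 0.94 ± 0.34 (SE; adjusted p = 0.0445). Another Rgs2 probe set was called higher, by 1.47 (log2).

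The proteasome list stood at the top of the list medians. Of 28 members measured, 4 rose and 0 fell, against 2.56% and 0.286% of all genes, and 26 were positive, against 43.8% of all genes. The median was 0.42, against -0.06 for all genes. The highest of the 4 level bins (8.39 and above), where the mean level of this list lies, had a median of 0.25. Psma1, an alpha-ring subunit of the 20S core, read 10.41, 10.09, 9.97 and 11.19 in the P56 arrays, against 9.08, 8.94, 9.78 and 9.53 in the P35 arrays (difference 1.08 ± 0.30 SE, adjusted p = 0.00962). Psmb7, a catalytic beta subunit, read 10.03, 9.75, 9.75 and 11.01 in the P56 arrays, against 9.01, 8.94, 9.12 and 9.24 in the P35 arrays (difference 1.06 ± 0.32 SE, adjusted p = 0.0183). In both of these the ages did not overlap. Psmc5, an ATPase of the 19S cap, differed by 1.17 ± 0.25 (SE; adjusted p = 0.00164) and Uchl1, a neuronal deubiquitinating enzyme, by 1.39 ± 0.39 (SE; adjusted p = 0.0118). The mean level of the list ran from 10.29 to 10.88 in the P56 arrays and 9.87 to 10.11 in the P35 arrays, without overlap, and from 10.13 to 10.55 at P28. All 4 calls were lost without P56 replicate 4 (0.76 to 1.05) and without P35 replicate 2 (0.91 to 1.21), that of Uchl1 also without P35 replicate 1 (1.18), and none of the 4 was called with P35 replicates 3 and 4 alone or with the high-Xist arrays left out. In these settings the differences were 0.76 and 0.38 for Psma1, 0.95 and 0.57 for Psmb7, 0.69 and 0.25 for Psmc5 and 0.80 and 0.18 for Uchl1. The list median was 0.48 with P35 replicates 3 and 4 alone, 0.23 with the high-Xist arrays left out, 0.17 after quantile normalization and 0.12 for P56 against P28.

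Splicing and RNA-binding protein genes had 4 of 38 called higher, 0 called lower (all genes gave 2.56% and 0.286%) and a median of 0.34. The highest of the 4 level bins, which holds the list mean at both ages (9.85 at P56 and 9.45 at P35), had a median of 0.25. Hnrnph1, an hnRNP that binds G-rich RNA, read 9.46, 9.65, 9.43 and 10.55 in the P56 arrays, against 7.56, 7.74, 8.96 and 8.79 in the P35 arrays (difference 1.51 ± 0.31 SE, adjusted p = 0.00108). The SR proteins Srsf2 and Srsf1 differed by 1.48 ± 0.28 (SE; adjusted p = 0.00057) and 1.29 ± 0.22 (SE; adjusted p = 0.000255), and the splicing activator Tra2a by 1.04 ± 0.33 (SE; adjusted p = 0.0247). None of the 4 was called with P35 replicates 3 and 4 alone, Srsf1 also not without P35 replicate 2 (0.96) and Tra2a not without P56 replicate 1 or 4 or P35 replicate 1 or 2 (0.78 to 1.02). Against P35 replicates 3 and 4 and between the low-Xist arrays the differences were 0.89 and 0.66 for Hnrnph1, 0.92 and 0.51 for Srsf2, 0.62 and 0.47 for Srsf1 and 0.42 and 0.14 for Tra2a. The list median was 0.09 with P35 replicates 3 and 4 alone, 0.07 with the high-Xist arrays left out and 0.04 with the 90th percentile as a covariate. Of 36 chromatin regulators, the acetyltransferase Ep300 rose by 1.13 ± 0.28 (SE; adjusted p = 0.00487), with 1.80 against P35 replicates 1 and 2 and 0.47 against replicates 3 and 4, and Arid1a was at 0.90 ± 0.29 (SE; adjusted p = 0.0228). Ep300 lost its call without P35 replicate 1 (0.85) or 2 (0.97). Of 25 cell cycle genes, Pcna, the sliding clamp of DNA replication and repair, rose, reading 9.51, 9.25, 9.16 and 10.59 in the P56 arrays, against 7.55, 7.59, 8.44 and 8.56 in the P35 arrays (difference 1.59 ± 0.32 SE, adjusted p = 0.000927), and the inhibitor Cdkn1b was at 0.92 ± 0.27 (SE; adjusted p = 0.0136). Pcna differed by 1.13 against P35 replicates 3 and 4 and 0.70 between the low-Xist arrays, without a call in either, and Ep300 by 0.37 between the low-Xist arrays.

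Ribosomal, respiratory chain and cholesterol lists had medians above 0 for P56 minus P35 and below 0 for P35 minus P28, 2 comparisons that share the P35 arrays. Other lists did so too, among them the proteasome (0.42 and -0.28), splicing (0.34 and -0.09) and sodium channel lists (0.37 and -0.07). The median of 25 ribosomal protein genes was 0.32 for P56 minus P35, with 2 called higher (Rplp2, above, and Rps24 at 1.03 ± 0.35 SE, adjusted p = 0.0319), -0.06 for P56 minus P28 and -0.37 for P35 minus P28. In 38 oxidative phosphorylation genes the same medians were 0.25, -0.06 and -0.28, with 2 called higher. Over all genes 2.56% were called higher. Ndufs4, a subunit of complex I, read 9.79, 9.47, 9.47 and 10.78 in the P56 arrays, against 9.24, 9.12, 7.52 and 8.54 in the P35 arrays (difference 1.27 ± 0.29 SE, adjusted p = 0.00263), and Atp5o, a stalk subunit of ATP synthase, read 11.11, 10.94, 11.19 and 11.83 in the P56 arrays, against 10.88, 10.64, 9.37 and 10.06 in the P35 arrays (difference 1.03 ± 0.27 SE, adjusted p = 0.00688). In both of these the low arrays were P35 replicates 3 and 4, whereas in Slc45a3 they were replicates 1 and 2. Calls were lost without P56 replicate 4 for Rps24, Ndufs4 and Atp5o (0.84 to 0.97), without P35 replicate 3 for Ndufs4 and Atp5o (0.74 to 0.91), without P35 replicate 4 for Atp5o (0.97), and without P56 replicate 1 or P35 replicate 2 for Rps24 (0.90 and 0.88). Against P35 replicates 3 and 4 and between the low-Xist arrays the differences were 0.95 and 0.47 for Rps24, 1.85 and 1.44 for Ndufs4 and 1.55 and 1.35 for Atp5o. In 19 cholesterol synthesis genes the medians were 0.26, 0.03 and -0.34 with 0 called, and the sterol sensor Insig1 and the enzyme Msmo1 were at 0.88 ± 0.24 (SE; adjusted p = 0.0082) and 0.85 ± 0.35 (SE; adjusted p = 0.0695). The P56 minus P35 median of the cholesterol list was -0.03 with the high-Xist arrays left out, 0.06 with P35 replicates 3 and 4 alone and 0.05 with the 90th percentile as a covariate. That of the respiratory chain list was 0.35 with P35 replicates 3 and 4 alone, 0.10 after quantile normalization and 0.10 with the covariate, and that of the ribosomal list 0.58, 0.21 and 0.16. The highest of the 4 level bins, where the mean levels of both these lists lie, had a P56 minus P35 median of 0.25 in the main fit. Of 24 genes of glycolysis and the citric acid cycle 0 were called, with Idh3a at 0.53 and hexokinase Hk1 at 0.42. Gabarap, an autophagosome protein, rose by 1.08 ± 0.26 (SE; adjusted p = 0.00405), a call lost without P56 replicate 4 (0.83) or P35 replicate 3 (0.94), among 32 genes of mitochondrial dynamics, autophagy and lysosome, and Tfam, the mitochondrial transcription factor, was at 0.96 ± 0.35 (SE; adjusted p = 0.0438). Gabarap differed by 1.35 against P35 replicates 3 and 4 and 1.06 between the low-Xist arrays, and it was not called with the high-Xist arrays left out.

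Of 27 heat shock and unfolded protein response genes, Hspa1b was the 1 called, where 0.286% of all genes were called lower. At an adjusted p under 0.05 with no minimum difference, 4 were lower and 1 higher, against 16.7% and 7.67% of all genes. By sign, 15 were positive and 12 negative, against 43.8% of all genes positive. The median was 0.09, and the endoplasmic chaperone Hsp90b1 was at 0.64 ± 0.34 (SE; adjusted p = 0.163). In the interferon and antigen presentation list 0 of 21 were called, but Irf1 (-0.73 ± 0.15 SE, adjusted p = 0.00119) and Oas1a (-0.54 ± 0.10 SE, adjusted p = 0.000316) were lower by less than the minimum difference without overlap of the ages.

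**Figure D5:**
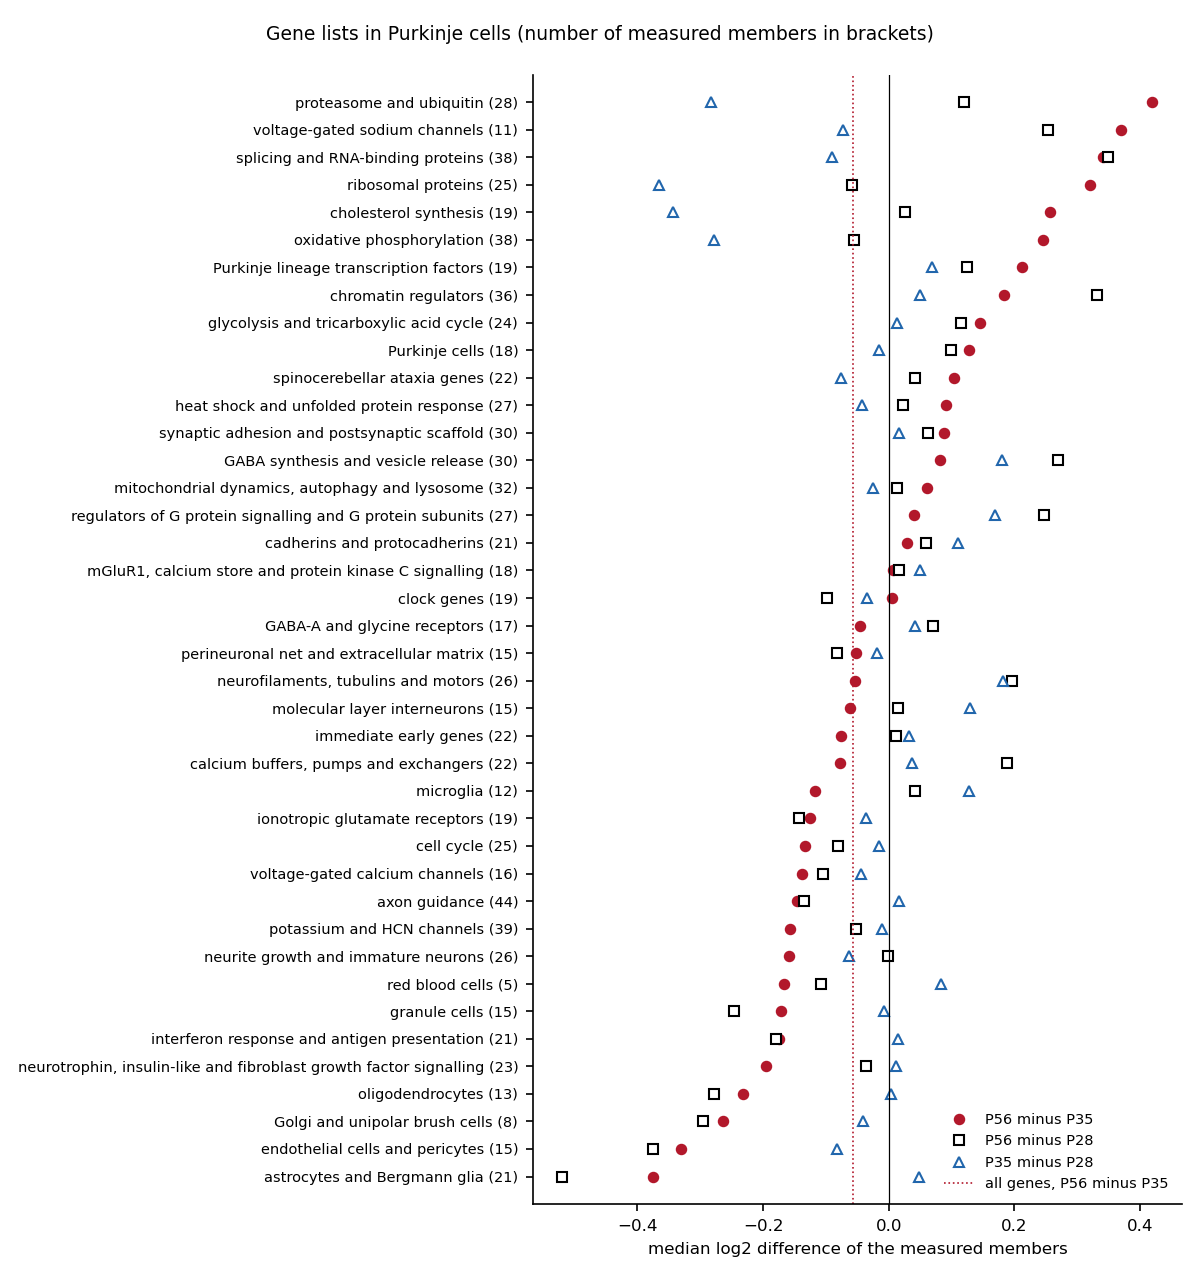
Median log2 difference of each gene list in Purkinje cells for P56 minus P35, P56 minus P28 and P35 minus P28, with the number of measured members. Proteasome genes have the highest P56 minus P35 median (0.42) and astrocyte and Bergmann glia genes the lowest (-0.38). For ribosomal, cholesterol and respiratory chain genes the P56 minus P35 medians (0.32, 0.26 and 0.25) lie above 0 and the P35 minus P28 medians (-0.37, -0.34 and -0.28) below it. The same holds for other lists, among them proteasome genes (P35 minus P28 median -0.28).

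The marker lists of neighbouring cells had medians at or below that of all genes. Their mean levels at P56 ran from 5.43 to 6.60, and the 2 lowest level bins, up to 6.80, had medians of -0.15 and -0.20. Several of the list medians are thus near those of other genes at such levels. Of 21 astrocyte and Bergmann glia genes 1 was called lower (Slc1a3), 0 higher, and 19 were negative, with a median of -0.38. Over all genes 0.286% were called lower and 2.56% higher, and 9829 of 17478 were negative. Slc1a3 read 6.99, 6.94, 8.26 and 6.79 in the P56 arrays, against 10.03, 8.96, 7.28 and 7.93 in the P35 arrays. Its difference was -1.30 ± 0.41 (SE; adjusted p = 0.0207), with -0.36 against P35 replicates 3 and 4 and -0.0065 between the low-Xist arrays. The mean level of the list was 6.45, 6.46, 6.91 and 6.58 in the P56 arrays, against 8.03, 7.10, 6.52 and 6.76 in the P35 arrays, so P35 replicate 1 was highest. Gja1, the gap junction protein connexin 43 of astrocytes, read 5.01, 4.58, 7.62 and 5.43 in the P56 arrays, against 9.89, 6.03, 5.34 and 6.85 in the P35 arrays, and Gdf10, a growth factor of Bergmann glia, read 5.33, 5.15, 5.84 and 5.34 in the P56 arrays, against 8.20, 6.84, 5.55 and 6.77 in the P35 arrays. Their differences were -1.37 ± 0.95 (SE; adjusted p = 0.297) and -1.42 ± 0.69 (SE; adjusted p = 0.128). With P35 replicates 3 and 4 alone the list median was -0.08, and with the high-Xist arrays left out it was 0.0048. Mt2 and Kcnj10 were also highest in P35 replicate 1, and the part of glial RNA in these differences was not tested.

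The other marker lists had 0 called genes. Medians were -0.17 for 15 granule cell genes, -0.23 for 13 oligodendrocyte genes, -0.33 for 15 endothelial and pericyte genes, -0.12 for 12 microglial genes, -0.06 for 15 interneuron genes, -0.26 for 8 genes of Golgi and unipolar brush cells and -0.17 for 5 red blood cell genes. The oligodendrocyte mean ran from 6.47 to 6.66 in the P56 arrays and 6.77 to 6.85 in the P35 arrays, without overlap, and the granule cell mean from 6.04 to 6.23 in the P56 arrays and 6.23 to 6.37 in the P35 arrays. The members with the largest differences were Barhl1 (-0.44) and Grin2c (-0.42) for granule cells, Ugt8a (0.77) and Cnp (-0.66) for oligodendrocytes, Slco1a4 (-0.66) and Pdgfrb (-0.50) for vessels, Fcer1g (-0.61) and Laptm5 (-0.46) for microglia, Zic1 (-1.04) and Cdh22 (-0.77) for interneurons, Grm2 (-0.64) and Sst (-0.60) for Golgi cells, and Hba-a1 (-0.23) and Hba-a2 (0.19) for red blood cells.

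The change between the ages was also set against that between the libraries labelled Stellate/Basket P56 and Stellate/Basket P35. The 2 arrays labelled Stellate/Basket P56 go against their label in their markers: Kit was 5.35 and 6.86 there, against 9.77 and 10.85 in the 2 Stellate/Basket P35 arrays, and the mean of the interneuron markers was 7.23 and 7.27, against 9.33 and 10.12. Pcp2 was 13.79 and 13.35, against 12.73 and 12.18, and the mean of the Purkinje markers was 12.07 and 10.63, against 10.02 and 10.25. These differences are between the labelled libraries and are not shown to be between cell types. Replicate 1 of the library labelled Stellate/Basket P56 had both high Xist (11.42) and high Eif2s3y (7.92). The difference between the changes was called for 2650 genes (15.2%), 1660 in the positive direction (9.5%) and 990 in the negative one (5.66%), and the Stellate/Basket libraries alone gave 798 genes higher (4.57%) and 1222 lower (6.99%). For the 5 genes with the largest positive difference the Purkinje values were small and the Stellate/Basket values large: P56 minus P35 in the Purkinje and in the Stellate/Basket libraries was 0.20 and -5.99 for Prdm8, a transcriptional repressor of neurons, 0.54 and -5.07 for Sgk1, a kinase induced by glucocorticoids, -0.07 and -5.66 for Grik3, a kainate receptor subunit, 0.29 and -5.16 for Lypd6, and 1.23 and -4.03 for Cdc42ep3. For the 5 with the largest negative difference it was -0.68 and 4.08 for F2r, the thrombin receptor, -2.04 and 2.53 for Ankrd6, -0.87 and 3.00 for Itih3, -0.05 and 3.81 for Acta1, the actin of skeletal muscle, and 0.47 and 4.22 for Cyp4v3. None of these 10 was called in Purkinje cells, and the part of the marker difference given above in these values was not tested.

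Among the leading Purkinje genes, 5 decreases were called lower in the Stellate/Basket arrays too, at -2.12 for Clstn1, -3.28 for Rasgrf1, -1.54 for Tsks, -1.94 for Hspa1b and -2.07 for Bex1 (log2). Their changes in the Purkinje minus the Stellate/Basket libraries were -0.27, 1.06, -0.11, 0.41 and 0.75, and 0 of these 5 differences were called. Gcnt2 was called higher in both, at 3.19 in the Purkinje and 1.97 in the Stellate/Basket libraries. Zc3h14 and Scg5 were called lower in the libraries labelled Stellate/Basket P56, at -2.94 and -1.65, and for both the difference was called. Over all calls, 43 genes were higher in both sets of libraries, which is 9.6% of the 448 Purkinje and 5.39% of the 798 Stellate/Basket increases, where 4.57% of all genes were Stellate/Basket increases. Nearly as many of the 448, 39 (8.71%), were called lower in the Stellate/Basket libraries, where 6.99% of all genes were. Of the 50 decreases, 9 were lower in both, 18% of the 50 and 0.736% of the 1222 decreases, and 2 (4%) were higher in the Stellate/Basket libraries.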

How the data were processed

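Log2 expression values per probe set, as the authors deposited them, were used with no further scaling. GCRMA and R 2.9.1 stand in the submitters' processing notes, and their roles are not given in the sources used. Values ran from 3.94 to 14.57, and no read depth exists: the number of arrays limits the precision. Of 42 columns, 2 Stellate/Basket columns equalled the mean of 2 others within 1e-08 and were left out. Of 45101 probe sets, 34958 had 1 gene symbol in the platform annotation, 932 several and 9211 none. A gene was read by the probe set whose mean over 40 arrays was highest, and genes above 5 in at least 3 arrays were tested, which left 17478, of which 17327 matched RefSeq. Further probe sets are given above for some genes only. They can differ from the one used in size, call or direction.

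A limma 3.58.1 fit (R 4.3.3) of 12 groups with 28 residual degrees of freedom and Benjamini-Hochberg adjustment over all genes gave every adjusted p. The labels name no batch, and p-values measure the spread between arrays. On simulated data with 200 genes changed, the fit for P56 against P35 recovered 76% at a log2 change of 1.2, 94% at 1.5, 92% at 2 and 100% at 3, and called 2 others. The simulated noise was independent between genes and arrays. It held neither the split of the P35 arrays nor the unequal upper ranges, so it does not measure calls that come from those.

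The text names the 12 largest called differences in each direction whose arrays did not overlap, the 5 largest differences of change between Purkinje and Stellate/Basket libraries in each direction, up to 4 called members of each of 40 lists (the 2 largest differences where under 2 were called) and 5 checks. Symbols that are clone or locus names were counted (14 of the increases, 1 of the decreases) and not named. Of 969 list genes 875 were measured. Members and lists were chosen with earlier results of these data known. Alternatives covered the probe set rule, filter, normalization, covariates, samples in the fit and thresholds. The choices about P35 replicates 3 and 4, Xist and the averaged columns were made after seeing the data. Figures were drawn with matplotlib 3.10.9.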

Additional observations from a re-analysis of the deposited data

Results flagged for a closer look

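Among 242 groups of 4 arrays examined for the named genes at P56 and P35, 6 had 1 array far from the other 3, and chance gives about 1 in 20 groups. Of these arrays 5 were from P56 and 1 from P35. Pdxdc1 was at 7.64 in P56 replicate 4, below the other 3 arrays of that age, which lay between 7.72 and 7.74. Grm2 was at 6.58 in P56 replicate 3, above the other 3 arrays of that age, which lay between 6.42 and 6.43. Neto2 was at 8.92 in P56 replicate 2, below the other 3 arrays of that age, which lay between 9.57 and 9.62. Gphn was at 8.81 in P56 replicate 2, below the other 3 arrays of that age, which lay between 9.37 and 9.48. Pcdh20 was at 8.87 in P56 replicate 2, below the other 3 arrays of that age, which lay between 9.63 and 9.78. Adamts4 was at 8.51 in P35 replicate 2, below the other 3 arrays of that age, which lay between 9.10 and 9.22. P56 replicate 2 was the low array for 3 of these genes.

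The change between the ages in the Purkinje libraries differed from that in the libraries labelled Stellate/Basket, by the called difference of changes in the same limma fit, for 47 of 121 named genes, against 15.2% of all genes. These shares cannot be compared as a test. Of the named genes, 5 in each direction were picked for this difference, and many others for their Purkinje change, which is part of it. Values here are the log2 change in the Purkinje libraries minus that in the Stellate/Basket libraries. Among the leading genes they were 2.63 for Slc45a3, 2.62 for Zfp383, 2.23 for Tpx2, 3.08 for Tm2d1, 2.33 for Hikeshi, 2.57 for Tug1, 4.89 for Zc3h14, 3.58 for Scg5, -1.97 for Mt2 and -1.81 for Rab37. The genes with the largest differences had 6.19 for Prdm8, 5.61 for Sgk1, 5.59 for Grik3, 5.45 for Lypd6, 5.26 for Cdc42ep3, -4.76 for F2r, -4.57 for Ankrd6, -3.88 for Itih3, -3.86 for Acta1 and -3.75 for Cyp4v3. In channel, synaptic, guidance and marker genes they were 2.21 for Gphn, 2.77 for Gabrb2, 2.16 for Nrxn3, 2.89 for Slc8a1, -2.19 for Cacng5, -1.82 for Kcnj10, -2.27 for Sema3f, -3.09 for Tubb2b, -2.36 for Cdh22 and 4.19 for Kit. In splicing, chromatin, cell cycle and lineage genes they were 2.80 for Hnrnph1, 2.02 for Srsf2, 2.09 for Srsf1, 1.62 for Tra2a, 1.60 for Arid1a, 2.86 for Pcna, 1.85 for Cdkn1b and 3.49 for Foxp1. In respiratory chain, metabolic, proteasome and chaperone genes they were 1.80 for Ndufs4, 1.35 for Atp5o, 2.43 for Idh3a, 1.08 for Hk1, 1.14 for Insig1, 1.16 for Psmc5, 2.06 for Psma1, 2.05 for Psmb7 and 2.004 for Hsp90b1. All 47 values rest on the 2 libraries labelled Stellate/Basket P56, whose interneuron markers were low and whose Purkinje markers were high, and the part of that in the differences was not tested.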

How the results depend on the processing

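Of 2931 named gene values under alternatives, 2630 kept their side of the threshold, 225 were no longer called, 74 became called and 2 reversed: Pdxdc1 was at 0.071 with the mean of all probe sets and Cdh11 at -0.12 with the high-Xist arrays left out. Among the 2630, the sign changed with neither value called 46 times, in 25 genes, and the other 2584 kept their direction, and 136 of 960 list medians moved by more than the spread between arrays. Against 448 higher and 50 lower genes for P56 over P35, the mean of all probe sets gave 240 and 19, each probe set on its own 931 and 76, quantile normalization 196 and 85, arrays centred on their median 677 and 27 (96.2% higher, with the median of all genes at 0.06), the 90th percentile as a covariate 32 and 32, array weights 362 and 32, the compared groups alone 215 and 25, no minimum difference 1340 and 2918, and an adjusted p under 0.01 241 and 38. Among the choices made after seeing the data, P35 replicates 3 and 4 alone gave 152 and 29, the high-Xist arrays left out 38 and 31, and the low-Xist arrays left out 1891 and 609. Of the 498 called genes, 228 were shared with quantile normalization, 38 with the 90th percentile covariate, 94 with P35 replicates 3 and 4 alone, 27 with the high-Xist arrays left out and 471 with the low-Xist arrays left out. The cause was not tested.

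Leaving out 1 array gave 181 (without P56 replicate 4) to 739 (without P35 replicate 4) higher and 28 (without P35 replicate 1) to 111 (without P35 replicate 3) lower genes. Without P56 replicate 4 there were 32 lower, without P56 replicate 2 697 higher, without P35 replicate 1 271 higher, without P35 replicate 2 216 higher and 28 lower, without P35 replicate 3 711 higher and without P35 replicate 4 102 lower. For P56 against P28, where 618 genes were called, 1 array fewer gave 412 to 809, the mean of probe sets 323, each probe set 1449, the covariate 212, array weights 1287, no minimum difference 4539, and the high-Xist or low-Xist arrays left out 310 or 1086. For P35 against P28, where 67 were called, 1 array fewer gave 13 (without P35 replicate 3) to 151 (without P35 replicate 1), the same settings 36 with the mean of probe sets, 153 with the covariate, 329 with array weights and 233 with no minimum difference, and the compared groups alone 1, an adjusted p under 0.01 13, P35 replicates 3 and 4 alone 592 and the high-Xist arrays left out 589. For the difference between Purkinje and Stellate/Basket libraries, where 2650 were called, 1 array fewer gave 1958 to 4168 (without Stellate/Basket P56 replicate 1), each probe set 4417, the covariate 1690, array weights 417, the compared groups alone 1009, no minimum difference 4362, an adjusted p under 0.01 1552, P35 replicates 3 and 4 alone 1637, and the high-Xist or low-Xist arrays left out 1152 or 4382.

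The replicate numbers did not pair the samples: deviations of arrays with the same number correlated at -0.29, 0.32, -0.26 and 0.26 over the 4 pairs, and of the 4 numbers only replicate 2 correlated best with its own. With the replicate number as a block 433 genes were higher and 49 lower, 604 were called for P56 against P28, 62 for P35 against P28 and 2540 for the difference between Purkinje and Stellate/Basket libraries. With 4 arrays at each age and unequal upper ranges, a difference near the minimum of 1 is not firmly placed on either side of it.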
